A study of Mus musculus with 6 samples.

Results

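The genes of the proteasome were followed in mouse liver 6 h after a toxic dose of acetaminophen, in wild-type mice and in mice lacking Optn. They were taken as every protein-coding gene whose name is Psm, a letter from a to g and a digit, which gave 50 of the 55385 genes in the table, and 4 pseudogenes with such names were left out. The 20S core was covered by 8 genes of the alpha ring and 8 of the beta ring, and the immunoproteasome by 3 more. The 19S cap was covered by 6 ATPases and 11 non-ATPase subunits. A further 6 genes code for activators or an inhibitor of the core, and 7 for assembly chaperones (Psmg1 to Psmg4, Psmd5, Psmd9 and Psmd10). The last, Psmc3ip, matches by name only: it codes for a meiotic recombination factor and for no subunit.

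The proteasome degrades proteins that carry ubiquitin chains. Its 20S core is a barrel of alpha and beta rings in which 3 beta subunits (Psmb5, Psmb6 and Psmb7) cut the chain, and its 19S cap recognises ubiquitin, unfolds the substrate with a ring of ATPases and feeds it into the core. Interferon signalling can replace the cutting subunits by Psmb8, Psmb9 and Psmb10, which form the immunoproteasome and favour peptides for presentation on MHC class I. When degradation is blocked, the transcription factor NRF1 (Nfe2l1) is known to raise most subunit genes together. In acetaminophen injury, a reactive metabolite binds proteins of hepatocytes, and damaged proteins and organelles are cleared by the proteasome and by autophagy, in which optineurin (Optn) is a receptor for damaged mitochondria.

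Poly(A) RNA was sequenced from whole liver of 6 C57BL/6 mice aged 6 weeks, 2 in each of 3 groups. Wild-type controls (replicates 3 and 6) had been given 200 µL of phosphate-buffered saline intraperitoneally. Wild-type mice (replicates 1 and 4) and Optn-/- mice (replicates 4 and 5) had been given acetaminophen at 500 mg/kg by the same route. How the Optn allele was made, and whether it is lost in all cells, is not given in the sources used here, and no Optn-/- mice without acetaminophen were analysed here. In bulk tissue, fewer cells of a type and less RNA per cell cannot be told apart.

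Libraries held 59.1 to 77.3 M counts, of which the 50 genes took 0.251% to 0.312%. The deposited FPKM of Optn was 20.95 and 18.7 in controls, 9.17 and 9.19 in treated wild type, and 0.316 and 0.457 in treated Optn-/- livers, so no library went against its genotype label. Summed markers of hepatocytes, the labelled tissue, were high throughout (105400 to 145900 CPM, counts scaled to library size). Markers of neutrophils (8 genes) summed to 2.60 and 7.22 CPM in controls and 71.5 to 198 in the 4 treated livers. Markers of infiltrating monocytes (6 genes) summed to 2.25 and 4.01 CPM in controls and 63.9 to 211 in treated livers. Those of red blood cells (6 genes) gave 700 and 1110 against 3962 to 9383 CPM. Traces of skeletal muscle (12 genes, 66.2 to 99.4 CPM against at most 0.976) marked control replicate 3 and both treated wild-type libraries, while intestinal markers (12 genes) were at 43.8 to 63.6 CPM in control replicate 6 and both Optn-/- libraries and at most 15.1 elsewhere. Each treated group lies wholly within 1 of these library sets, so genotype and library set cannot be told apart in treated mice. The part of these other cells in the results below was not tested unless a value is given.

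The members are spread over 16 chromosomes, with 10 of them on chromosome 11, and the sequence before their start sites was richer in GC than that of most genes. RefSeq start sites (GRCm38.p6) were found for 42 of the 50 genes, in 45 windows of 250 bases before the start. Their median GC content was 57.6%, against 52.4% over all 32851 such windows in the table, and the median number of CpG dinucleotides was 14 against 6. The GC box (GGGCGG) stood in 51.1% of the members' windows and 32.7% of all windows, and CCAAT in 33.3% and 33.8%. The core of the antioxidant response element, to which NRF1 binds with small Maf proteins (TGACNNNGC), stood in 5 members' windows, or 11.1% against 10.2% of all. They belong to Psmb5, Psmb6, Psmc6, Psmd9 and Psmd12. The interferon motifs were searched as TTCNNNGAA, the gamma-interferon activation site, which stood in 2 members' windows (Psmb8 and Psmg1, 4.44% against 7.02%), and as GAAA, any 2 bases and GAAA, an IRF-like site, which stood in 3 (Psmb3, Psmd4 and Psmd9, 6.67% against 2.98%). Both strands were searched for each motif, and a match is a description of letters only. In the Psmd9 window the antioxidant core overlaps a GC box.

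Of the windows below, the first belongs to the 1 member that rose in both comparisons with controls, and the next to 2 immunoproteasome genes that lie close together on chromosome 17 and had the lowest and highest value of their group in wild type. The last belongs to a constitutive catalytic subunit. Each is 5′ to 3′ on the gene's strand in GRCm38.p6 and ends at the base before the RefSeq start. Capitals mark every match of the 5 motifs.
Psmd8, chr7:29180674-29180923, minus strand: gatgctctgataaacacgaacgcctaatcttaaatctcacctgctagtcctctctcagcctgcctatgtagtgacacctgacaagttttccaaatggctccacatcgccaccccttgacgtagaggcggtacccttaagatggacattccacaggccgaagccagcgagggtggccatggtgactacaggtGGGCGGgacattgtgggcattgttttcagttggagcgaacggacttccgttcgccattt
Psmb9, chr17:34187331-34187580, minus strand: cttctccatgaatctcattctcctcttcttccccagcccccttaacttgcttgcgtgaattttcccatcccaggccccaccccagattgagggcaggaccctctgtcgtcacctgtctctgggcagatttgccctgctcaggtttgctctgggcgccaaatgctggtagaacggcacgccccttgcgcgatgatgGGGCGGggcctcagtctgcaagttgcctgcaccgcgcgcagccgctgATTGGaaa
Psmb8, chr17:34197945-34198194, plus strand: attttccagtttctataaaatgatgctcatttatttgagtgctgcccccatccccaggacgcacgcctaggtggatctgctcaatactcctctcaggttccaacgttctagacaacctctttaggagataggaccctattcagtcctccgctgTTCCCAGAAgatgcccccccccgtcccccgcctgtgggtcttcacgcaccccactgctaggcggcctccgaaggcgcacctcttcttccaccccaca
Psmb5, chr14:54617996-54618245, minus strand: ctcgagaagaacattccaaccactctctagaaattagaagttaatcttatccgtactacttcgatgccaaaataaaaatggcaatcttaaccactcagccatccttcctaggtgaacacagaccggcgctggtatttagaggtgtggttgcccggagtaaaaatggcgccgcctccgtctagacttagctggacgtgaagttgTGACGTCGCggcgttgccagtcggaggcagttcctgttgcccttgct
The Psmd8 window holds 1 GC box, 59 bases before the start. That of Psmb9 holds a GC box at 55 bases and, on the other strand, CCAAT at 8 bases. The Psmb8 window holds the gamma-interferon site match TTCCCAGAA at 97 bases, and the Psmb5 window the antioxidant core TGACGTCGC at 47 bases. None of these matches overlaps another. The windows of Psmb9 and of Tap1, a peptide transporter gene read in the opposite direction, share 225 of their 250 bases.

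Proteasome genes were abundant in liver and close between mice. Levels are given as scaled FPKM, the deposited FPKM (fragments relative to gene length and library size) divided by the library's trimmed-mean (TMM) factor. Of the 50 genes, 47 passed the filter of a mean deposited FPKM of 0.5, and 45 of these lay above the median of all 11677 genes tested. The median member had a mean FPKM of 19.2 against 2.96 for all genes tested, from 2.26 for Psmd5 to 62.2 for the alpha subunit Psma6. The 2 mice of a group differed by a median of 0.109, 0.122 and 0.135 on the log2 scale over the members in controls, treated wild type and treated Optn-/-, and by 0.207, 0.236 and 0.242 over all genes. The 3 genes under the filter were Psma8 and Psmb11, the alpha and beta subunits of the testis and the thymus, and Psmc3ip. Psma8 had at most 58 counts in any library and 0 in control replicate 3. Psmb11 had 0 counts in the 4 wild-type libraries and 8 and 19 in Optn-/- replicates 4 and 5. Psmc3ip had 2 to 86 counts.

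**Figure D1:**
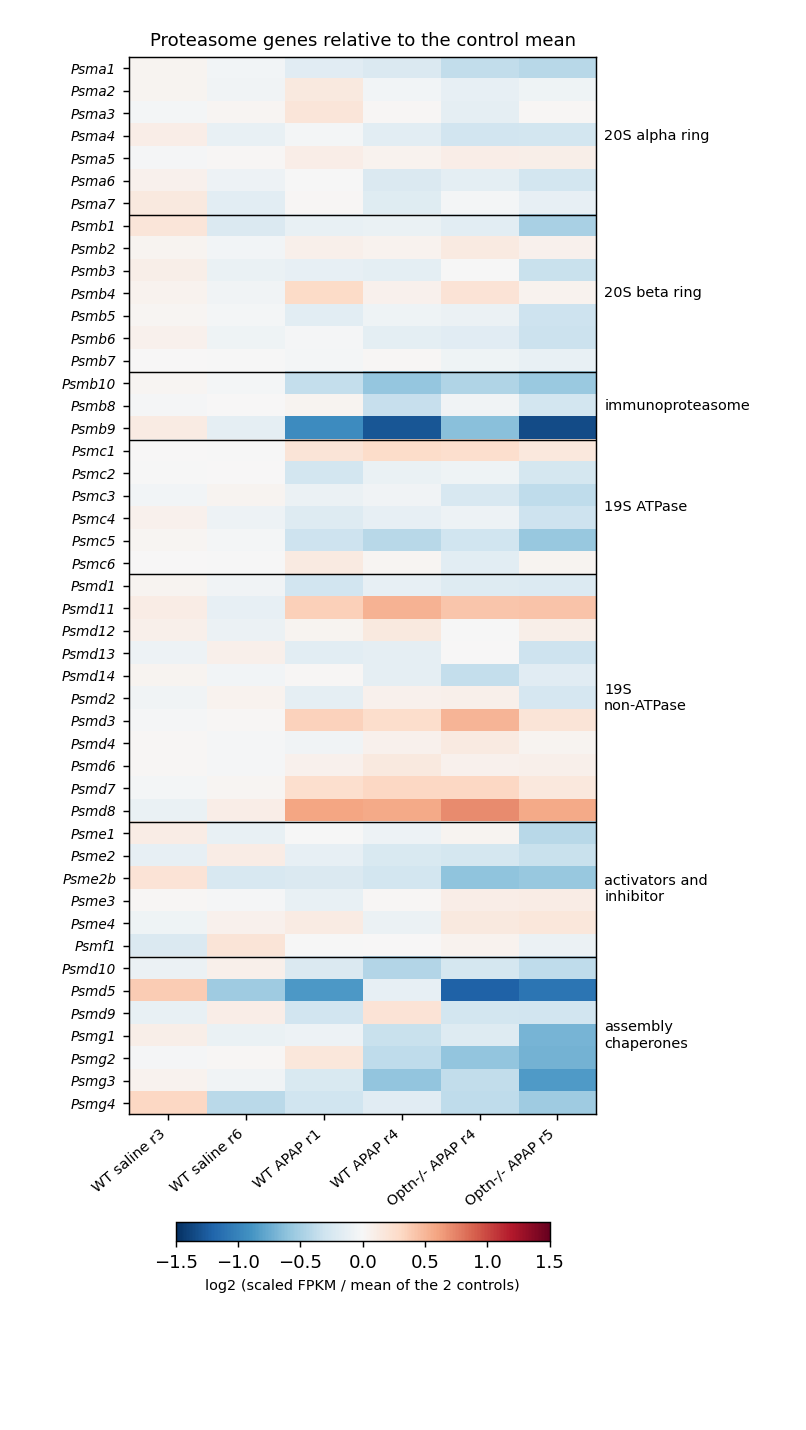
Level of each of the 47 tested proteasome genes (lines, grouped by role) in each of the 6 livers (columns), as log2 of scaled FPKM over the mean of the 2 controls; r is the replicate number and saline is the phosphate-buffered saline control. Most squares are pale; Psmb9 and Psmd5 are the darkest blue and Psmd8 the darkest red.

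The first comparison, acetaminophen against saline in wild type, asks how the proteasome genes respond to the injury. With TMM scaling the constitutive 26S genes had a median log2 fold change of -0.04, while 1 cap subunit, Psmd8, rose 1.49-fold and none of the 47 tested genes fell. Over all genes tested, 14.3% passed the same test (8.36% rose and 5.92% fell; edgeR's quasi-likelihood test, adjusted p under 0.05 over all genes). Among members 5 had an unadjusted p under 0.05, or 10.6% against 32.3% of all genes. The median log2 fold change of the members was -0.09, against 0.03 for all genes. For 10 members both treated mice lay above both controls (21.3% against 33.0% of all genes) and for 13 below (27.7% against 29.4%). The split of directions depends on the scaling. In deposited FPKM, without TMM factors, both treated mice lay below both controls for 36 members (76.6% against 45.1% of all genes) and above for 3 (21.1% of all genes). With total counts as the only scaling the median of all genes was -0.19 and that of the members -0.31, no member rose, and 4 fell (Psma1, Psmb9, Psmb10 and Psmc5).

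The constitutive 26S proteasome is described by 31 tested genes. Psma8 and Psmb11, which are not constitutive and were not tested, are counted with them, 33 in all. Their scaled FPKM summed to 897 and 855 in control replicates 3 and 6, 887 and 869 in treated wild-type replicates 1 and 4, and 877 and 804 in treated Optn-/- replicates 4 and 5. With TMM scaling the treated wild-type sums lay between the control sums, and that of Optn-/- replicate 5 lay below them. In deposited FPKM the sums were 976 and 948 in controls, 817 and 839 in treated wild type and 832 and 789 in treated Optn-/-, so all 4 treated sums lay below both controls. For all 31 genes the 95% interval of the fold change excluded a change of 2-fold in either direction, while this held for 48.9% of all genes tested. That share is not matched for level, and the median SE was 0.129 for these genes and 0.223 for all genes tested. Such intervals leave room for smaller changes.

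Psmd8, a non-ATPase subunit of the 19S lid, had a scaled FPKM of 23.4 and 26.8 in control replicates 3 and 6, 37.8 and 37.3 in treated wild-type replicates 1 and 4, and 40.9 and 37.2 in treated Optn-/- replicates 4 and 5. All 4 treated mice lay above both controls, and the treated groups overlapped. The gene (ENSMUSG00000030591, chromosome 7, 29174188 to 29180673, minus strand, GRCm38) rose by a log2 fold change of 0.57 ± 0.13 (SE) in wild type (95% interval 0.26 to 0.89, edgeR adjusted p = 0.0378). Its level relative to Psmd7, another lid subunit, was 94.2% and 105% in controls, 126% and 119% in treated wild type and 131% and 132% in treated Optn-/-. The adjusted p was above 0.05 when any 1 of the 6 libraries was left out (0.055 to 0.188), while the log2 fold change stayed between 0.48 and 0.65. With total counts as the only scaling the log2 fold change was 0.35 and missed the threshold as well (edgeR adjusted p = 0.108).

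In the alpha ring, whose subunits form the gate of the core, none of 7 tested genes passed the test and the median log2 fold change was -0.09. The largest value was that of Psma3, at 11.4 and 11.8 in controls and 13.1 and 11.7 in treated wild type, where the groups overlapped. The smallest was that of Psma1, at 23.7 and 22.3 in controls, 20.5 and 19.9 in treated wild type and 17.8 and 17.3 in treated Optn-/-. All treated mice had less Psma1 than both controls, with a log2 fold change of -0.20 ± 0.11 in wild type (edgeR adjusted p = 0.282).

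In the beta ring none of 7 tested genes passed the test either, and the median was also -0.09. Psmb5, the chymotrypsin-like subunit, was at 67.5 and 64.6 in controls, 59.3 and 63.1 in treated wild type and 62.4 and 53.4 in treated Optn-/-. Psmb6, the caspase-like subunit, was at 55.2 and 50.3, then 52.3 and 47.7, then 46.9 and 42.2 in the same order. Psmb7, the trypsin-like subunit, which overlaps Nek6 on the opposite strand, was at 27.1 and 26.8, then 26.3 and 27.3, then 25.8 and 24.9. Treated wild-type mice overlapped the controls for Psmb6 and Psmb7 and lay below them for Psmb5 (log2 fold change -0.12 ± 0.13). At the ends of the ring stood the non-catalytic Psmb4, at 53.0 and 49.1 in controls and 62.1 and 53.4 in treated wild type (0.17 ± 0.14), and Psmb3, at 31.5 and 27.6 against 27.1 and 26.7 (-0.14 ± 0.15). Neither passed the test.

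The ATPases of the 19S base, which unfold substrates, spread in both directions with a median of -0.13 and no gene past the test (6 tested). Psmc1 was at 39.9 in both controls, 45.4 and 48.1 in treated wild type and 47.4 and 44.6 in treated Optn-/-. Psmc5 was at 49.2 and 47.5 in controls, 39.0 and 36.3 in treated wild type and 39.2 and 32.7 in treated Optn-/-. With TMM scaling all treated mice stood on 1 side of both controls for both genes, Psmc1 above and Psmc5 below. Their log2 fold changes in wild type were 0.22 ± 0.11 (edgeR adjusted p = 0.243) and -0.37 ± 0.14 (edgeR adjusted p = 0.126). In deposited FPKM the Psmc1 groups overlapped, and its value was 0.003 with total counts as the only scaling.

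Among the 11 non-ATPase subunits, which recognise ubiquitin and remove its chains, the median was 0.09, and Psmd8 was the 1 gene past the test. Psmd11, a lid subunit, was at 8.72 and 7.39 in controls, 10.4 and 11.5 in treated wild type and 10.7 and 10.9 in treated Optn-/-. It lay above both controls in all 4 treated mice, with a log2 fold change of 0.43 ± 0.14 in wild type (edgeR adjusted p = 0.0911). The lowest value belonged to Psmd1, a scaffold of the base, at 11.2 and 10.5 in controls and 8.85 and 9.90 in treated wild type (-0.21 ± 0.12, edgeR adjusted p = 0.288).

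Activators open the core without the 19S cap: Psme1 and Psme2 form the interferon-inducible PA28 alpha-beta ring, Psme3 the nuclear PA28 gamma, Psme4 PA200, and Psmf1 codes for the inhibitor PI31. None of the 6 genes passed the test (median -0.05). Psme4 had the highest value, at 6.92 and 7.55 in controls and 7.88 and 6.80 in treated wild type (0.01 ± 0.13). Psme2b had the lowest, at 23.8 and 17.5 in controls, 17.8 and 17.1 in treated wild type and 13.7 and 13.9 in treated Optn-/- (-0.25 ± 0.19 in wild type, and -0.015 without control replicate 3). It is a copy of Psme2, and 60.2% of its 75-base stretches also occur in Psme2 transcripts, so its counts are uncertain.

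The assembly chaperones, which pair alpha subunits (Psmg genes) or build the 19S base (Psmd5, Psmd9 and Psmd10), were all below 0 in this comparison (7 of 7, median -0.24, against 47.9% of all genes below 0) and none passed the test. Their summed scaled FPKM was 44.1 and 37.3 in controls, 35.6 and 34.2 in treated wild type and 31.4 and 26.7 in treated Optn-/-. All 4 treated sums lay below both controls, but by gene the wild-type groups overlapped for 5 of the 7. Both treated wild-type mice lay below both controls for 2 of them (28.6% against 29.4% of all genes). Psmd9, the highest, was at 4.07 and 4.69 in controls and 3.58 and 5.03 in treated wild type (-0.03 ± 0.19). It overlaps Hpd, an abundant liver gene with 5435% of its counts, on the opposite strand, and whether the counting used strand is not given in the sources used here. Psmd5, the lowest, was at 4.05 and 2.15 in controls, 1.71 and 2.85 in treated wild type and 1.34 and 1.45 in treated Optn-/-. Its groups overlapped in wild type (-0.45 ± 0.37), and without control replicate 3 the value was 0.077. It overlaps Cutal by 573 bases on the opposite strand, a gene with 122.5% of its counts, so its level is uncertain in the same way.

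**Figure D2:**
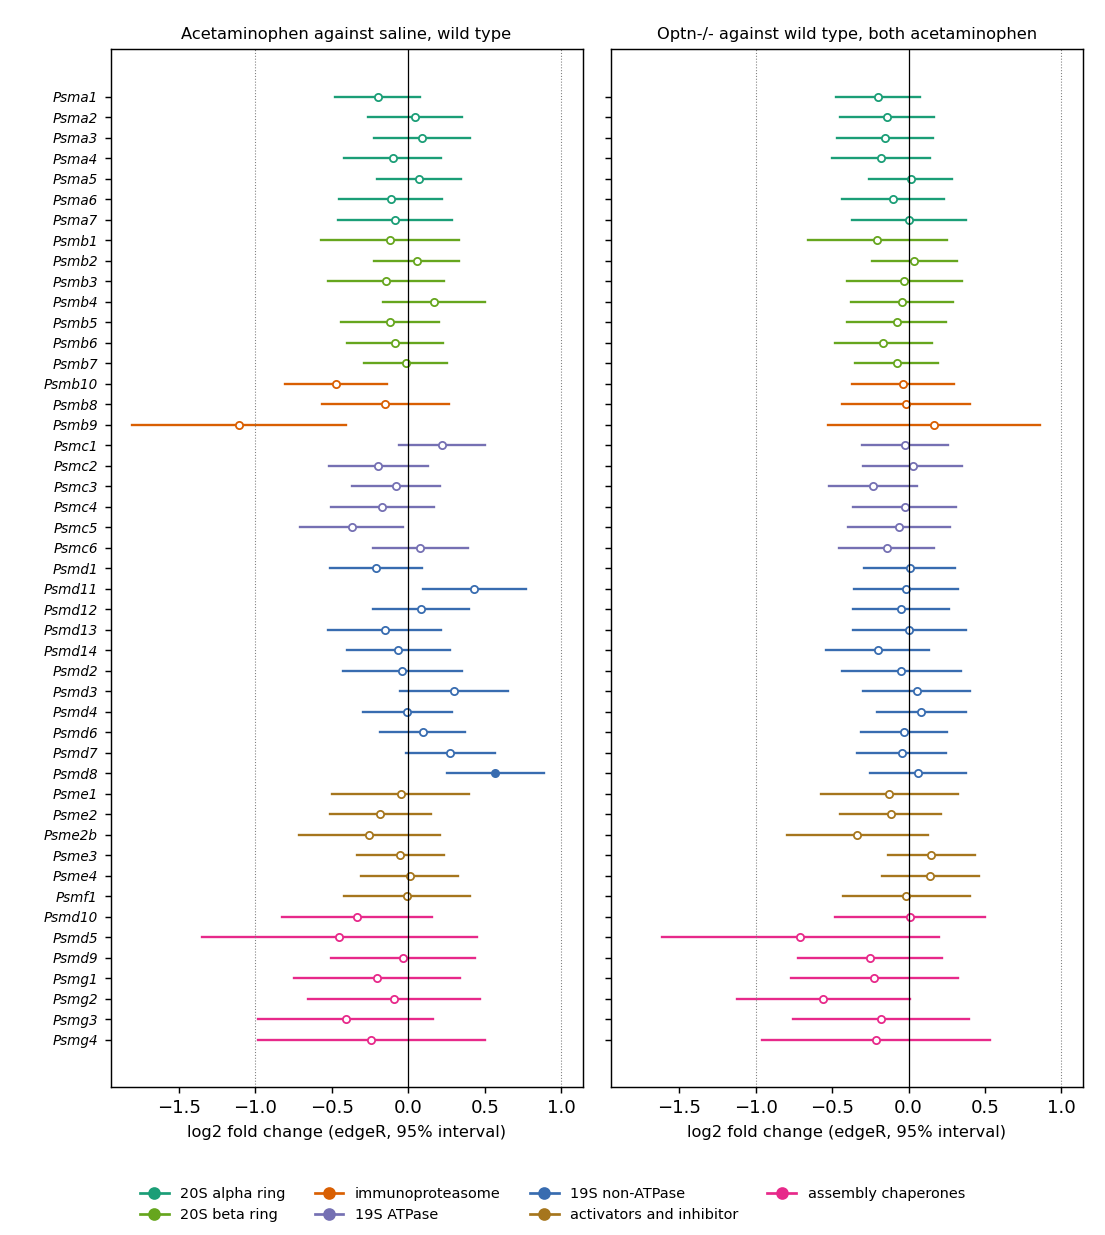
Log2 fold change of each tested proteasome gene with its 95% interval from edgeR, for acetaminophen against saline in wild type (left) and Optn-/- against wild type under acetaminophen (right). Colours give the role, filled points passed an adjusted p of 0.05 and dotted lines mark a 2-fold change. Psmd8 is the 1 filled point (left, 0.57), and Psmb9 lies farthest left (-1.11).

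The immunoproteasome genes had the lowest median of the subunit groups (-0.47 for 3 genes) and ranged from -1.11 to -0.15 (differences between genes were not tested). Psmb9 (also named Lmp2) was at 4.17 and 3.47 in controls, 1.99 and 1.57 in treated wild type and 2.47 and 1.51 in treated Optn-/-. All 4 treated mice lay below both controls, with a log2 fold change of -1.11 ± 0.29 in wild type (95% interval -1.81 to -0.41), but the adjusted p missed the threshold (edgeR adjusted p = 0.0542). Psmb10 was at 17.4 and 16.7 in controls, 13.3 and 11.4 in treated wild type and 12.5 and 11.6 in treated Optn-/-. It too lay below both controls in all treated mice (-0.47 ± 0.14 in wild type, edgeR adjusted p = 0.0719). Psmb8 (Lmp7) was at 7.65 and 7.78 in controls, 7.93 and 6.07 in treated wild type and 7.42 and 6.40 in treated Optn-/-. The wild-type groups overlapped for Psmb8 (-0.15 ± 0.17, edgeR adjusted p = 0.60), and without treated wild-type replicate 4 its value was 0.03. Leaving out either Optn-/- library brought Psmb9 past the threshold in wild type (without replicate 4, edgeR adjusted p = 0.0455; without replicate 5, 0.0431), while it stayed short of it without any 1 wild-type library (0.107 to 0.196). DESeq2 called Psmb9 (adjusted p = 0.0039) and Psmb10 (adjusted p = 0.0118). In wild type, Psmb9 passed the threshold in 7 of 13 alternative analyses and Psmb10 in 4 of 14, and the others fell short.

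Ratios within a library do not depend on its scaling. Deposited FPKM of Psmb9 was 7.56% and 6.90% of that of Psmb6, the subunit it replaces, in controls. The ratio was 3.81% and 3.29% in treated wild type and 5.27% and 3.58% in treated Optn-/-. Psmb10 stood at 64.3% and 62.2% of Psmb7 in controls, 50.5% and 41.8% in treated wild type and 48.3% and 46.6% in treated Optn-/-. Both ratios were lower in all 4 treated mice than in both controls. Psmb8 stood at 11.3% and 12.03% of Psmb5 in controls, 13.4% and 9.63% in treated wild type, and 11.9% and 11.98% in treated Optn-/-, and here the groups overlapped. With 2 mice against 2, an exact permutation test has a smallest two-sided p of 0.333, and the ratios were not tested.

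Psmb9 and Tap1 share most of their upstream sequence and are set side by side here, with no test of the difference between them. Psmb9 (ENSMUSG00000096727, chromosome 17, 34181987 to 34187764, minus strand) and Tap1 (34187553 to 34197225, plus strand) lie head to head and overlap by 212 bases, where reads of the genes may not be separated, and Psmb8 (34197721 to 34201454, plus strand) follows. Tap1 was at 2.44 and 2.17 in controls, 2.47 and 2.23 in treated wild type and 2.51 and 2.76 in treated Optn-/-. Wild-type groups overlapped (0.02 ± 0.16 on the log2 scale, edgeR adjusted p = 0.958). With total counts as the only scaling the value was -0.20. The ratio of Psmb9 to Tap1 in deposited FPKM was 1.71 and 1.60 in controls, 0.807 and 0.704 in treated wild type and 0.987 and 0.548 in treated Optn-/-, lower in all treated mice.

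**Figure D3:**
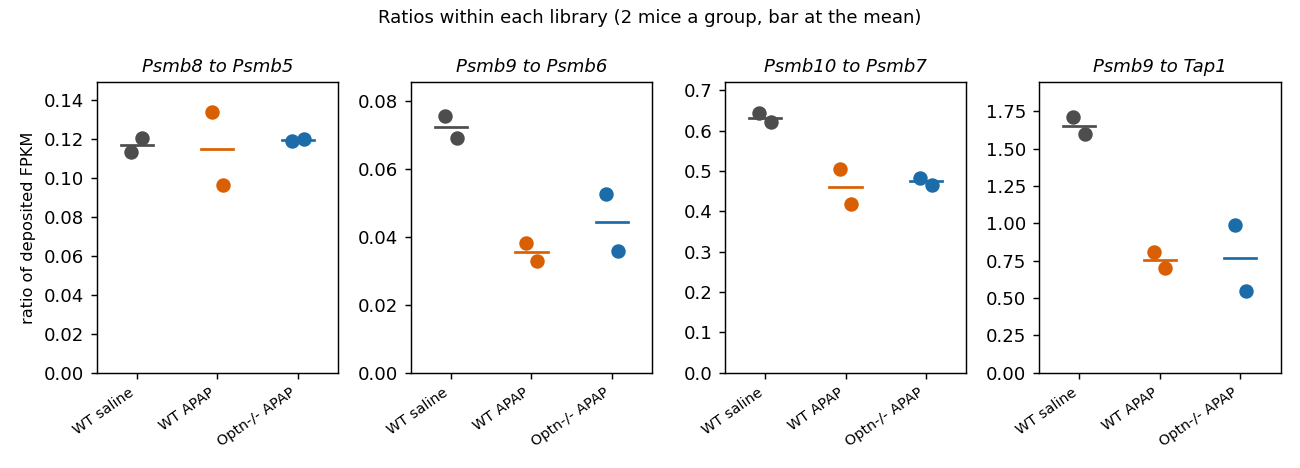
Ratio of deposited FPKM within each library for the 3 immunoproteasome subunits to the constitutive subunits they replace, and for Psmb9 to its neighbour Tap1. Points are mice and bars are means of 2. Treated mice lie below both controls for Psmb9 to Psmb6, Psmb10 to Psmb7 and Psmb9 to Tap1, and overlap them for Psmb8 to Psmb5.

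Genes that act with the proteasome were read from related lists, and the polyubiquitin gene Ubb, the proteasome stimulator Zfand5 and 2 small Maf genes rose. Of 17 tested partners without the Psm prefix, 2 rose and 1 fell in wild type (median 0.05), or 17.6% called against 14.3% of all genes, a share near the background. Zfand5, which binds the 26S proteasome and stimulates it, was at 1.03 and 1.61 in controls, 7.52 and 10.6 in treated wild type and 8.98 and 8.20 in treated Optn-/-. It rose 6.82-fold (log2 fold change 2.77 ± 0.28, edgeR adjusted p = 0.00484). Zfand2a (AIRAP), its arsenite-inducible relative, rose by 1.46 ± 0.29 (2.84 and 3.06 in controls, 5.96 and 10.4 in treated wild type), a call lost in 7 of 14 alternative analyses. The shuttle factor Ubqln4 fell from 8.83 and 8.40 to 3.25 and 4.56 (-1.15 ± 0.19, edgeR adjusted p = 0.0163), a call lost in 3 of 14 alternative analyses. Pomp, the chaperone that completes the core, was at 12.7 and 11.5 in controls and 11.5 and 9.87 in treated wild type. Adrm1, a ubiquitin receptor of the cap, was at 16.6 and 15.3 against 13.2 and 15.4. Neither passed the test (edgeR adjusted p = 0.408 and 0.489).

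Ubb, a gene that codes for linked copies of ubiquitin, was at 262 and 278 in controls, 462 and 519 in treated wild type and 517 and 391 in treated Optn-/-. All treated mice lay above both controls. Ubb rose by a log2 fold change of 0.85 ± 0.17 in wild type (edgeR adjusted p = 0.0292), a call lost in 7 of 14 alternative analyses. Repeats within the gene and its retrocopies can divide reads, so its level is less certain than those of subunits.

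In the NRF1 pathway 3 of 13 genes rose and 1 fell (30.8% called against 14.3% of all genes, median 0.05), but Nfe2l1 itself was not uniform. It was at 2.57 and 2.90 in controls, 1.76 and 11.6 in treated wild-type replicates 1 and 4, and 11.6 and 10.6 in treated Optn-/-. Replicate 1 lay below both controls and the other 3 treated mice above them, so the test did not pass (1.28 ± 0.76, edgeR adjusted p = 0.305), and without replicate 4 the value was -0.65. Treated wild-type replicate 4 also had the highest neuron markers (121 CPM against 6.02 to 13.4). In Optn-/- replicates 4 and 5 those markers were at 6.02 and 8.33 CPM. The part of such cells in the level of Nfe2l1 was not tested. Of its small Maf partners, Maff and Mafk rose by 5.17 ± 0.29 and 2.55 ± 0.15 (edgeR adjusted p = 0.00144 and 0.00145), and Mafg did not. Maff was at 1.76 and 1.39 in controls and 47.0 and 67.3 in treated wild type. Mafk was at 2.38 and 2.65 in controls and 14.1 and 15.6 in treated wild type. Mafg was at 10.85 and 10.61 in controls and 10.29 and 7.86 in treated wild type (-0.251 ± 0.175, edgeR adjusted p = 0.377). Ddi2, the protease that releases active NRF1, rose from 9.77 and 10.0 to 16.6 and 18.8 (0.83 ± 0.13, edgeR adjusted p = 0.0144). Syvn1, an endoplasmic reticulum ubiquitin ligase, fell from 11.8 and 15.4 to 7.69 and 7.48 (-0.85 ± 0.17, edgeR adjusted p = 0.0288). The call of Ddi2 was lost in 4 of 14 alternative analyses (edgeR adjusted p up to 0.0852) and that of Syvn1 in 5 (up to 0.105). Nfe2l2 (NRF2) was at 11.9 and 11.2 in controls and 11.9 and 10.7 in treated wild type (-0.05 ± 0.14).

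Of the genes that act in interferon signalling, Irf1, an interferon-induced factor known to drive Psmb9 and Tap1, was at 4.17 and 5.45 in controls and 4.03 and 3.95 in treated wild type (-0.28 ± 0.18, edgeR adjusted p = 0.347). Summed markers of T and NK cells (6 genes) were at 1.74 and 2.02 CPM in controls and 3.87 to 7.53 in the 4 treated livers, all above both controls. Those of dendritic cells (5 genes) were at 1.61 and 3.24 CPM in controls and 2.59 to 3.95 in treated livers, where the groups overlapped. No marker was at 0 in all libraries, and the part of these cells in the levels was not tested.

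**Figure D4:**
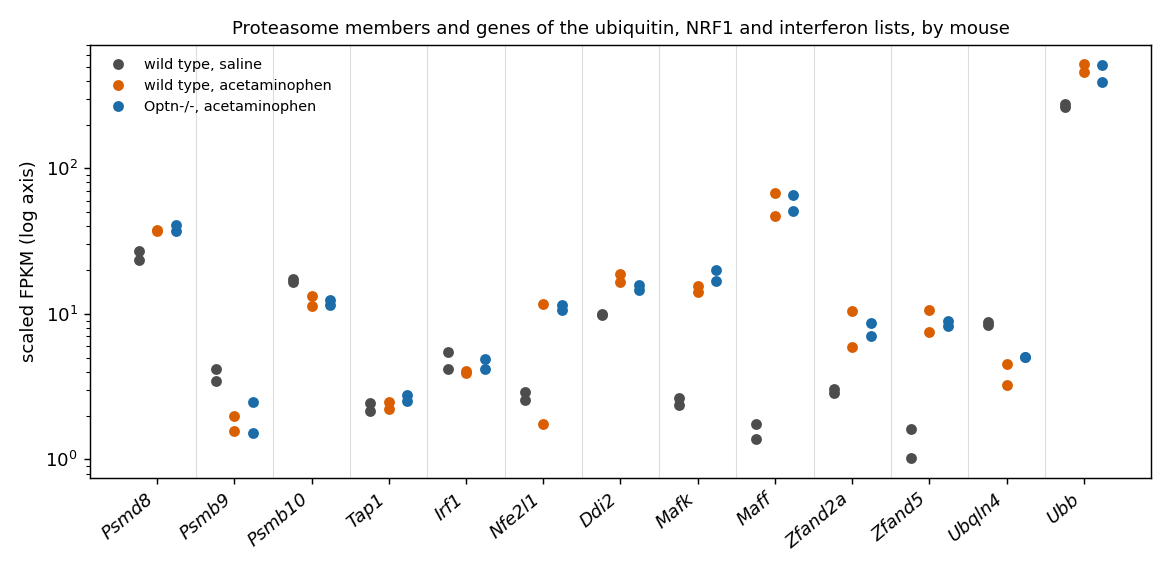
Scaled FPKM on a log axis, 1 point a mouse, for 3 proteasome genes and 10 genes of the interferon, NRF1, partner and ubiquitin lists. Maff, Mafk, Zfand5 and Ubb lie higher in all treated mice, while Nfe2l1 is low in 1 treated wild-type mouse (1.76).

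The second comparison, Optn-/- against wild type with both under acetaminophen, asks whether treated livers differ by genotype. Without Optn-/- mice given saline, a change in the response itself cannot be estimated. No proteasome gene passed edgeR's test in either direction, and none had an unadjusted p under 0.05. DESeq2 and limma also called none, each with 1 gene at an unadjusted p under 0.05. The background was low as well, since 0.103% of all genes tested were called (0.0514% in each direction, 8.77% at an unadjusted p under 0.05). The median log2 fold change of the members was -0.05 (all genes 0.00), from -0.71 for Psmd5 to 0.17 for Psmb9. Both Optn-/- mice lay above both wild-type mice for 2 members (4.26% against 20.7% of all genes) and below for 13 (27.7% against 18.9%).

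For 45 of the 47 genes, and for all 31 constitutive subunits, the 95% interval excluded a 2-fold difference between the treated groups. This held for 64.8% of all genes tested, a share not matched for level. The interval bounds genotype and library set together, which cannot be told apart here. For Psmd8 it ran from -0.26 to 0.37 around 0.06, and for Psmb10 from -0.37 to 0.30 around -0.04. Psmb9, at 0.17, had a wider interval of -0.53 to 0.86. The 2 exceptions were the chaperones Psmg2, at 5.63 and 3.84 in treated wild type and 3.34 and 3.08 in Optn-/- (-0.56 ± 0.23, interval -1.13 to 0.01, edgeR adjusted p = 0.576), and Psmd5 (-0.71 ± 0.37, interval -1.61 to 0.20, edgeR adjusted p = 0.644). Of the 7 chaperones 6 were below 0 (median -0.22), and 50.1% of all genes were. The value of Psmg2 was -0.26 without treated wild-type replicate 1 and -0.81 without replicate 4. For Psmd5 it was -0.29 without treated wild-type replicate 4, while a term for library set, estimated from the controls alone, gave 0.21. In the partner list and the NRF1 pathway none of the genes tested was called, and Nlrc5, an activator of MHC class I genes, had a log2 difference of 0.59 ± 0.18 (edgeR adjusted p = 0.509).

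The third comparison set treated Optn-/- livers against the same saline controls as the first, so the values below share their controls with it and are no independent repeat. Psmd8 rose again and Psmb10 fell, with 20.3% of all genes called (12.2% rose and 8.05% fell), and 12 of 47 members had an unadjusted p under 0.05 (25.5% against 35.9%). The median of the members was -0.17 (all genes 0.00). With total counts as the only scaling no member rose and 11 fell. Psmd8 rose by 0.63 ± 0.13 (edgeR adjusted p = 0.0227), a call that was lost without either control or either Optn-/- library (adjusted p 0.0625 to 0.132). Psmb10 (ENSMUSG00000031897, chromosome 8, 105935735 to 105938104, minus strand) fell by 0.51 on the log2 scale (SE 0.14, edgeR adjusted p = 0.0490). Psmb10 lies just inside the threshold, and its call was lost in 9 of 14 alternative analyses, among them leaving out any 1 library (adjusted p 0.054 to 0.186), while the value stayed below 0 in all 14. Both Optn-/- mice lay below both controls for 24 members (51.1% against 32.2% of all genes) and above for 11 (23.4% against 34.2%).

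By role, the medians in this comparison were -0.10 for the alpha ring, -0.17 for the beta ring, -0.18 for the ATPases, 0.06 for the non-ATPase subunits and -0.10 for the activators. The immunoproteasome genes had the lowest median (-0.51), with 1 of 3 called. The chaperones had a median of -0.46, where 7 of 7 were below 0 (50.1% of all genes were) and none passed the test. Psmb9 was at -0.94 ± 0.28 (edgeR adjusted p = 0.0674), Psma1 at -0.40 ± 0.11 (edgeR adjusted p = 0.0571) and Psmd5 at -1.16 ± 0.37 (edgeR adjusted p = 0.0801). All 3 were lower in both Optn-/- mice than in both controls, and none passed the test. For Psmd5 the value was -0.63 without control replicate 3 and -1.57 without control replicate 6. A term for library set rests on the controls alone and repeats the -0.63, so it is no second check. Among related genes the same counts as in wild type were called for partners (2 rose, 1 fell, 17.6% against 20.3% of all genes) and the NRF1 pathway (3 and 1, 30.8%). Ubb rose by 0.74 (edgeR adjusted p = 0.0334), a call lost in 9 of 14 alternative analyses (adjusted p up to 0.154). Nlrc5 rose by 0.70 (edgeR adjusted p = 0.0472), at 1.77 and 1.83 in controls and 3.31 and 2.57 in Optn-/- livers, a call lost in 11 of 13 alternative analyses.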

How the data were processed

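Per the file headers, the deposited table gives each gene an integer count and an FPKM value in every library. Per the submitters' processing notes, Bowtie 0.12.2 and the mm8 build were used. The coordinates of 43 of the 50 members equal those of GENCODE M21, however, so coordinates are given as GRCm38. Those of Psma7, Psma8, Psmb10, Psmd8, Psmd9, Psmd13 and Psme1 did not equal them. The sources used here do not give how reads were counted or whether strand was used. The labels' protocols speak once of an adipose type, while each tissue label is liver.

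Counts were fitted with edgeR 4.0.16 (quasi-likelihood, TMM scaling, R 4.3.3) over all 6 libraries as 3 group means, for the 11677 genes whose mean FPKM reached 0.5. Values were adjusted by Benjamini-Hochberg over all of them at 0.05. The fit has 3 residual and 2.93 prior degrees of freedom. Labels speak of individual animals but give no cage or day, so p-values measure the spread between these mice. Alternatives were DESeq2 1.42.0, limma 3.58.1 on log2(FPKM + 0.5), other scalings and filters, fewer samples and the library set as a term. Within a group the library set differs only between the controls, so its term is estimated from them alone. For treated Optn-/- against controls it gave Psmd8 0.536 and Psmb10 -0.476, the same values as leaving out control replicate 3.

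The members, gene lists and tests were chosen with earlier results of these data known. Values by mouse are given for members past the test, the immunoproteasome subunits and their partners, the highest and lowest member of each role in the first comparison, related genes past the test (at most 6 a list) and the anchors Nfe2l1, Nfe2l2, Pomp, Adrm1, Irf1 and Tap1. Some listed genes are not reported here. Psmd7 (as a reference for Psmd8), Psmd11, Psmg2 and Mafg were added after their values were seen. Paaf1 was not matched by name.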

Additional observations from a re-analysis of the deposited data

How the results depend on the processing

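No paired analysis was made, because the labels name no pairs of mice across groups. In wild type, the count of members that rose (1) was 2 with DESeq2 and 0 with limma, total counts, no filter, only the 2 groups compared or the library set as a term, and 0 whichever library was left out. The count that fell (0) was 2 with DESeq2, 4 with limma, 4 with total counts, and 1 each with a mean FPKM of at least 5, no filter or only the 2 groups, and 0 to 1 with a library left out. All genes called (1667) came to 3107 with DESeq2, 819 at a mean FPKM of at least 5, 812 with the library set, and 494 to 1263 with a library left out. The members' median (-0.09) was -0.29 with limma, -0.31 with total counts, and -0.11 to -0.024 with a library left out. Total-count scaling moved the median of all genes to -0.19, and the members' median stood 0.11 below it, as with TMM (-0.11).

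Between genotypes no alternative called a member. All genes called (12) came to 291 with DESeq2, 27 with limma, 37 with no filter, 30 with only the 2 groups, 3 with the library set, and 1 to 28 with a library left out. The members' median ranged from -0.13 to 0.02 with a library left out. For treated Optn-/- against controls, the count that rose (1) was 2 with DESeq2, 0 with total counts, 0 with the library set and 0 to 1 with a library left out. The count that fell (1) was 7 with DESeq2, 11 with limma, 11 with total counts, 0 with only the 2 groups or the library set, and 0 to 1 with a library left out. All genes called (2366) came to 3620 with DESeq2, 1035 at a mean FPKM of at least 5, 960 with the library set, and 750 to 2201 with a library left out. The members' median (-0.17) was -0.35 with limma, -0.36 with total counts, and -0.27 to -0.11 with a library left out.

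Signs turned, in wild type, without treated wild-type replicate 4 for Psmb8 (-0.35 to 0.027 with a library left out), Psmg2 (-0.39 to 0.15) and Nfe2l1 (-0.65 to 2.08), and without control replicate 3 for Psmd5 (-0.87 to 0.077). Tap1 turned to -0.16 with limma, -0.20 with total counts, -0.037 with no filter, -0.002 with only the 2 groups, -0.068 with the library set, and -0.09 to 0.11 with a library left out. Tap1 in Optn-/- against controls was -0.001 with total counts, and Psmd5 between genotypes was 0.21 with the library set. None of these genes had passed the test. At a mean FPKM of at least 5, Psmb9, Psmd5, Psmg2, Tap1 and Nlrc5 were not fitted. Within the libraries with muscle traces, wild type against control replicate 3 alone gave Psmd8 0.65 (edgeR adjusted p = 0.0941). The causes were not tested. With 2 mice a group, a lone library in a group is assumed to vary like the others, and small changes are not detectable at this precision.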
